A study of Mus musculus with 4 samples.

Results

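TET and JmjC chromatin dioxygenases are nuclear enzymes that oxidise methyl groups on DNA or histones. A set of 8 genes was examined in mouse liver: the TET genes Tet1, Tet2 and Tet3 and the histone demethylase genes Kdm3a, Kdm4a, Kdm4b, Kdm4c and Kdm6b. They were chosen by symbol, and the probes by the RefSeq accession that the array files pair with each probe. Of the 8 genes, 6 matched a probe. Tet1 and Tet3 matched none and were not analysed here. The 6 genes were read by 9 of the 41174 probes, and each of the 9 was well above background in both dye channels on all 4 arrays. All 9 were among the 39328 probes (95.5%) tested, which had to exceed background in either channel on 3 or more arrays.

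The livers came from C57Bl/6 males at 3 months of age, and all of them, controls included, carried a mutant Wrn protein. Wrn is a RecQ helicase whose loss causes Werner syndrome in humans. The labels do not describe the allele further, and no liver with wild-type Wrn was part of the comparison. Treated mice had 0.4% vitamin C in their drinking water since weaning, and control mice were untreated. RNA from 4 treated livers (Cy3) was hybridised against RNA from 4 untreated livers (Cy5) on 4 two-colour Agilent arrays, called pairs 1 to 4. The labels call the pairs biological replicates.

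These enzymes bind iron in their active site and consume oxygen and 2-oxoglutarate, a metabolite of the citric acid cycle. Vitamin C (ascorbate) keeps such iron in its reduced state and stimulates TET and JmjC enzymes in cultured cells. TET enzymes turn 5-methylcytosine into 5-hydroxymethylcytosine and further oxidised bases, which opens a route to demethylated DNA. JmjC demethylases remove methyl groups from histone lysines. Mice, unlike humans, make ascorbate in the liver. The arrays read mRNA and neither the activity of an enzyme nor its marks. In whole liver, fewer cells of a type and less RNA per cell cannot be told apart.

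Median spot intensities were 379.5 to 530 in Cy3 and 813 to 962 in Cy5, and negative control spots had medians of 62 to 67 and 66 to 80. For 245 probes spotted repeatedly, the median SD between spots was 0.0612 to 0.0742 on the log2 scale. Each mean below rests on 4 ratios. Over all probes, the ratios of pairs 1, 3 and 4 correlated with each other at r = 0.563 to 0.77. Pair 2 stood apart, with r of -0.131 to 0.057 against the others (across probes, which are not independent replicates). No array had its dyes swapped, so a dye effect of a probe and an effect of the treatment cannot be told apart. Ratios are given as vitamin C over untreated, on the log2 scale, as the dye labels give the direction. That is the opposite sign to the deposited log2 table. Of the 6 listed hepatocyte markers, 4 matched a probe by accession (Alb, Apoa1, Ttr and Hnf4a), and all 4 were well above background in both channels on every array.

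None of the 9 probes passed an adjusted p of 0.05 in limma's test over all probes, nor did any other probe (0%). The smallest adjusted p of the series was 0.139, a value that many probes shared. Kdm4b was among them, and 3.32% of all probes had a smaller unadjusted p. Kdm4b encodes a demethylase of histone H3 lysine 9 and H3K36. Its mRNA was higher in treated livers on all 4 arrays, at 1.21-fold with a 95% interval of 1.09 to 1.35. Tet2 was below its untreated partner on all 4 arrays with both of its probes, at 0.94-fold and 0.89-fold, although the brighter one was at a log2 ratio of 0.002 with Agilent's processed signals and the dimmer one at 0.041 with no loess. Kdm3a, Kdm4a, Kdm4c and Kdm6b had probes on both sides of 0 among the arrays.

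**Figure D1:**
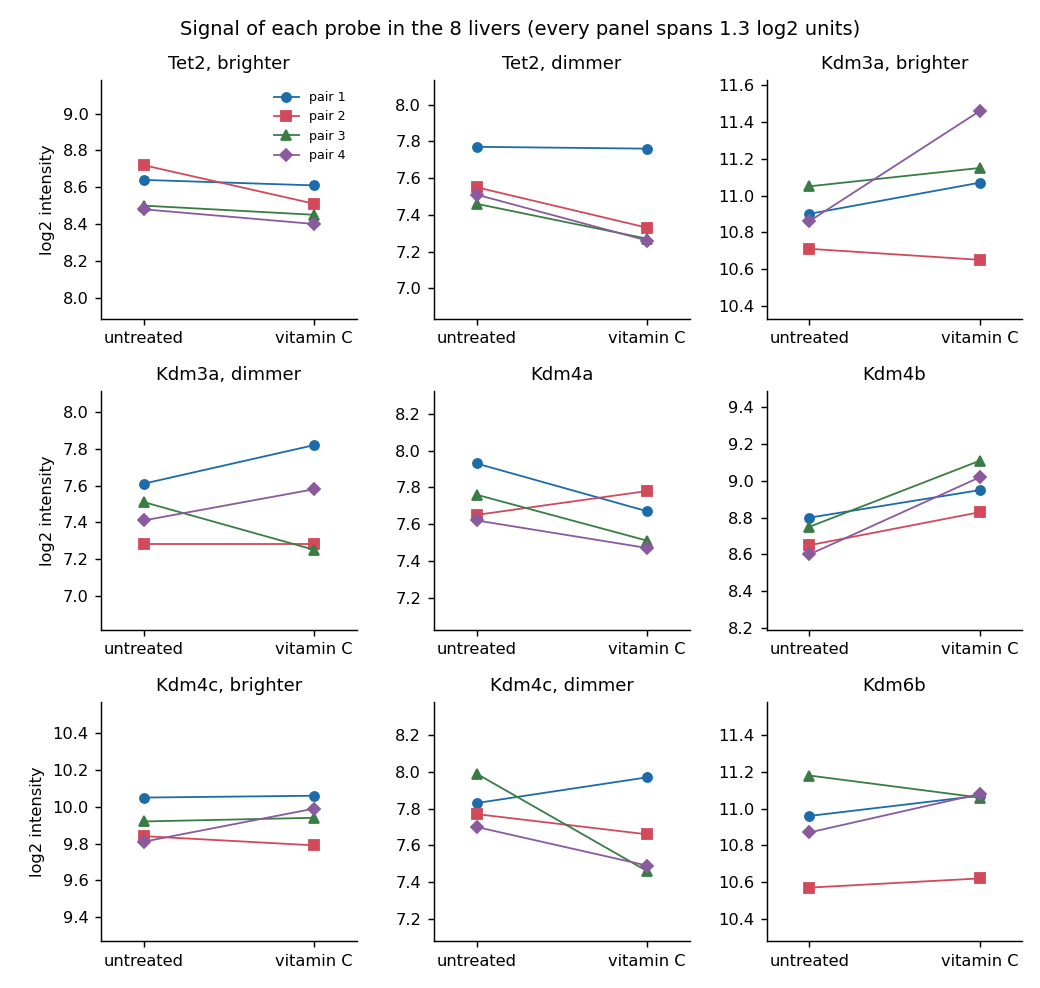
Normalised log2 intensity (vertical axes) of each of the 9 probes in the treated (Cy3) and untreated (Cy5) livers, with points for single livers and lines joining the livers of a pair. For Kdm4b, every treated liver, from 8.83 to 9.11, lay above every untreated liver, from 8.60 to 8.80; the groups overlapped for the other 8 probes.

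Tet2, the measured member of the TET family, is an enzyme that is often mutated in human blood cancers. Its brighter probe (A_51_P340083) read log2 intensities of 8.61, 8.51, 8.45 and 8.40 in the treated livers of pairs 1 to 4. The untreated livers of the same pairs read 8.64, 8.72, 8.50 and 8.48. The groups overlapped, although each treated liver lay below its partner. The 4 log2 ratios were -0.029, -0.20, -0.047 and -0.080, with a mean of -0.09 ± 0.078 (SD, n = 4). In limma's fit the 95% interval ran from -0.22 to 0.037 and the adjusted p was 0.292.

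The dimmer Tet2 probe (A_52_P502083) read 7.76, 7.33, 7.27 and 7.26 in treated livers and 7.77, 7.55, 7.46 and 7.51 in untreated livers. The treated liver of pair 1 was close to its partner and above the 3 other treated livers. Log2 ratios were -0.014, -0.22, -0.19 and -0.25, with a mean of -0.17 ± 0.11 (SD, n = 4). The limma fit gave an interval of -0.31 to -0.027, an unadjusted p of 0.0272 and an adjusted p of 0.155. With Agilent's processed signals the mean was -0.404 and with no loess 0.041, with adjusted p-values of 0.19 and 0.642 in limma. In the same direction, 15.5% of all probes had an unadjusted p under 0.05. The probes of Tet2 differed from each other by 0.078 ± 0.089 in log2 ratio and had the same sign on 4 of 4 arrays. Of all single probes, 15.5% were below 0 on every array.

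Kdm3a removes methyl groups from mono- and dimethylated H3K9 (lysine 9 of histone H3), and its transcript is a known target of hypoxia-inducible factors. The brighter of its probes (A_51_P116309) read 11.07, 10.65, 11.15 and 11.46 in treated livers, and 10.90, 10.71, 11.05 and 10.86 in untreated livers. The treated liver of pair 4 was the highest of the 8, and the treated liver of pair 2 was the lowest. The ratios were 0.18, -0.053, 0.10 and 0.60, with a mean of 0.21 ± 0.28 (SD, n = 4), which is 1.15-fold with an interval of 0.957 to 1.39. The adjusted p was 0.262 in limma. Without pair 4 the mean ratio was 0.075, with no loess 0.05 and with Agilent's processed signals 0.335.

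A second Kdm3a probe (A_52_P133965), annotated to another transcript record, was dimmer. It read 7.82, 7.28, 7.25 and 7.58 in treated livers and 7.61, 7.28, 7.51 and 7.41 in untreated livers. Its ratios were 0.21, 0.0043, -0.26 and 0.17, with a mean of 0.033 ± 0.21 and an adjusted p of 0.824 in limma. Both Kdm3a probes had the same sign on 2 of 4 arrays. They lay close together on pairs 1 and 2, and the brighter probe was higher by 0.36 and 0.44 on pairs 3 and 4.

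Kdm4a, Kdm4b and Kdm4c encode related demethylases that act on trimethylated H3K9 and H3K36, and Kdm4b is another target of hypoxia-inducible factors. The Kdm4b probe (A_51_P410286) read 8.95, 8.83, 9.11 and 9.02 in treated livers and 8.80, 8.65, 8.75 and 8.60 in untreated livers. All treated livers lay above all untreated livers, as they did for 4.62% of all probes, while the reverse order held for 2.5%. The ratios were 0.16, 0.18, 0.36 and 0.42, with a mean of 0.28 ± 0.13 (SD, n = 4). Of all probes, 15.5% were likewise above 0 on every array. The unadjusted p was 0.00473 in limma, and 3.32% of all probes had a smaller p. An unadjusted p under 0.05 with a higher mean in treated livers was found for 11.7% of all probes.

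Kdm4a was read by a single probe (A_52_P633988), with 7.67, 7.78, 7.51 and 7.47 in treated livers and 7.93, 7.65, 7.76 and 7.62 in untreated livers. It was lower in the treated liver of pairs 1, 3 and 4 and higher in that of pair 2. The ratios of -0.26, 0.14, -0.24 and -0.15 gave a mean of -0.13 ± 0.18 (SD, n = 4). In limma the interval was -0.32 to 0.064 and the adjusted p was 0.314.

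The brighter Kdm4c probe (A_51_P150354) read 10.06, 9.79, 9.94 and 9.99 in treated livers and 10.05, 9.84, 9.92 and 9.81 in untreated livers. Treated and untreated livers were close to each other in pairs 1 to 3. The mean ratio was 0.042 ± 0.099 (SD, n = 4), with single ratios of 0.017, -0.056, 0.027 and 0.18, an interval of -0.096 to 0.18 and an adjusted p of 0.643 in limma. The dimmer Kdm4c probe (A_52_P320170) read 7.97, 7.66, 7.46 and 7.49 in treated livers and 7.83, 7.77, 7.99 and 7.70 in untreated livers. Its ratios were 0.14, -0.11, -0.54 and -0.21, with a mean of -0.18 ± 0.28 and an adjusted p of 0.314 in limma. This mean was -0.287 without pair 1, -0.062 without pair 3 and -0.037 with no loess. As reported, the probes of Kdm4c had opposite mean signs and the same sign on 2 of 4 arrays, with the brighter one higher by 0.56 on pair 3. Which of them reads the Kdm4c transcripts of liver better was not tested.

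**Figure D2:**
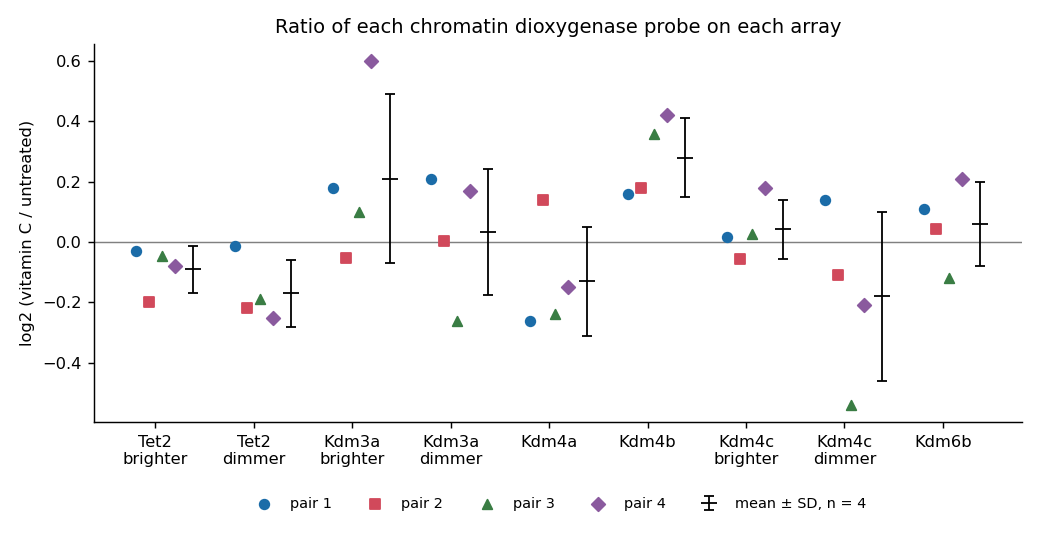
Log2 ratio of vitamin C over untreated (axis in log2 units) for each of the 9 probes, with a coloured point for each pair and a bar for the mean ± SD of the 4. Kdm4b lies above 0 and both Tet2 probes below 0 on all 4 arrays, and the other 6 probes have points on both sides.

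The 3 measured KDM4 genes were compared with each other by their brightest probes, as differences between their log2 ratios on the same array. Kdm4b exceeded Kdm4a by 0.42, 0.047, 0.61 and 0.57, a mean of 0.41 ± 0.26 and 4 of 4 arrays. It exceeded Kdm4c by 0.14, 0.24, 0.33 and 0.24, a mean of 0.24 ± 0.079 and again 4 of 4 arrays. The exact sign-flip test, two-sided, gave p = 0.125 for both and 0.1875 after adjustment over the 3 pairs of genes. With 4 arrays this test cannot give a p below 0.125, so it could not have placed a difference of any size past 0.05. Kdm4c exceeded Kdm4a on 3 of 4 arrays, by a mean of 0.17 ± 0.24, with an exact p of 0.25 (0.25 adjusted).

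Kdm6b removes methyl groups from H3K27 (lysine 27 of histone H3) and is induced in macrophages by inflammatory stimuli. Its probe (A_51_P122017) read 11.07, 10.62, 11.06 and 11.08 in treated livers and 10.96, 10.57, 11.18 and 10.87 in untreated livers. Both livers of pair 2 were the lowest of their groups. The ratios of 0.11, 0.045, -0.12 and 0.21 gave a mean of 0.061 ± 0.14 (SD, n = 4), an interval of -0.10 to 0.22 and an adjusted p of 0.561 in limma. Of the listed Kupffer cell and macrophage markers, 5 of 6 were measured. Their median ratios were -0.375, 0.278, 0.053 and 0.409 on pairs 1 to 4, and their part in the Kdm6b values was not tested.

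Set against the whole array, the mean ratios of the 9 probes ran from the 15.7th percentile (dimmer Kdm4c probe) to the 96.2nd (Kdm4b). The brighter Kdm3a probe lay at the 91.8th. The 1st and 99th percentiles of all probes were at -0.513 and 0.406, and all 9 fell between them. Members did not share a direction on single arrays: 6, 4, 3 and 5 of the 9 probes were above 0 on pairs 1 to 4. Their medians on these pairs were 0.109, -0.053, -0.12 and 0.169, and the medians of all probes lay between -0.0075 and -0.0049. With 1 probe per gene, the brightest, 4 of the 6 genes had a mean above 0 and 2 below. Of these 6 genes, Kdm4b had an unadjusted p under 0.05, with a higher mean. Over all 31073 genes or accessions, 11.2% had one with a higher mean and 16.7% with a lower mean.

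**Figure D3:**
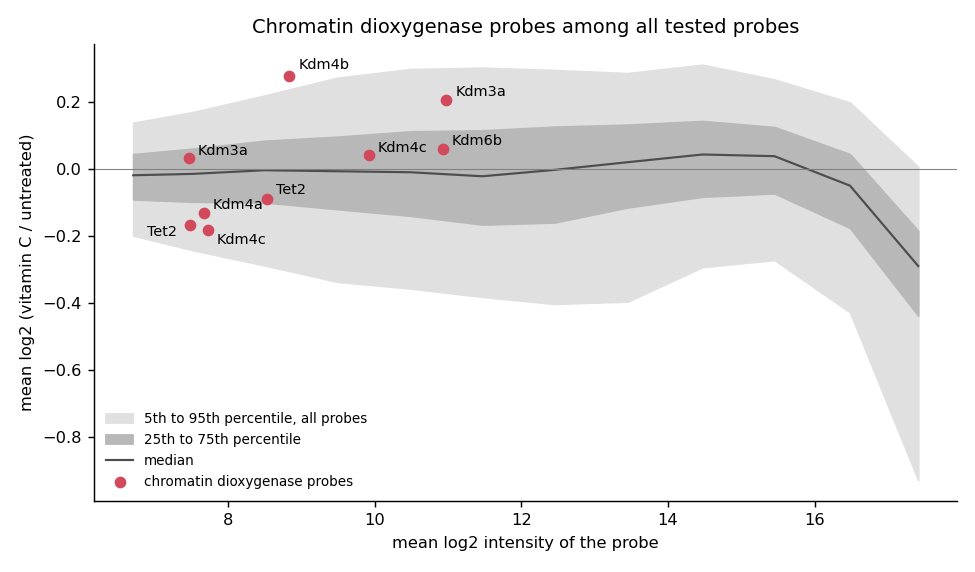
Mean log2 ratio (vertical axis) against mean log2 intensity (horizontal axis) of the 9 member probes, over an outer and an inner band of percentiles of all tested probes of like intensity, with their median as a line. Kdm4b, at 0.28, stands highest and the dimmer Kdm4c probe, at -0.18, lowest of the 9.

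The Kdm4b value was 0.234 to 0.33 under the 13 alternative settings, with adjusted p-values in limma from 0.0196 to 0.471. Most of these settings could not have turned its sign. Other filters, 1 probe per gene and an intensity trend left its mean as it was. All 4 ratios were above 0, so array weights or leaving out an array kept it above 0. Where the sign could turn, the mean was 0.33 with Agilent's processed signals and 0.258 with no loess. It was 0.313 in the deposited table, read as treated over untreated, and 0.287 after a running median was subtracted. Kdm4b passed the adjusted threshold under 3 of the 13 settings. Without pair 2, Kdm4b had a mean of 0.311 and an adjusted p of 0.0307 in limma, and Kdm4a a mean of -0.22 and an adjusted p of 0.0337. In that fit 9.17% of all probes passed as higher and 15.5% as lower. With array weights, which gave pair 2 a weight of 0.347 and the other pairs 1.11 to 1.96, Kdm4b was at 0.304 (adjusted p = 0.0196 in limma) and Kdm4a at -0.20 (adjusted p = 0.0431). Of all probes, 12% then passed as higher and 18.1% as lower. With no loess, Kdm4b was at 0.258 and the dimmer Kdm3a probe at 0.246, with adjusted p-values of 0.0347 and 0.0337 in limma, and 14.8% of all probes passed as higher.

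**Figure D4:**
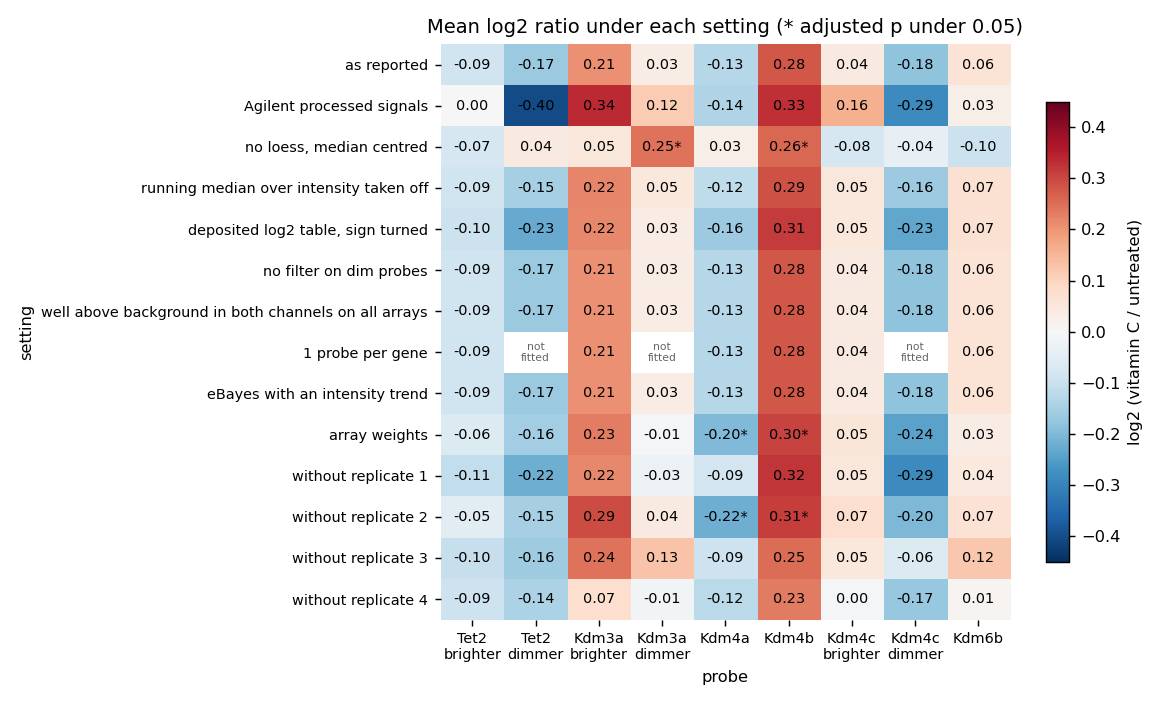
Mean log2 ratio (colour scale in log2 units, values printed) of each of the 9 probes (columns) as reported and under the 13 alternative settings (rows), with a star where the adjusted p in limma was under 0.05. Replicates 1 to 4 are pairs 1 to 4. Kdm4b stays between 0.234 and 0.33, whereas the dimmer Kdm3a probe runs from -0.028 to 0.246.

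For each member's brightest probe, the gene with the most similar 4 ratios was sought among 17068 named genes, by Euclidean distance over the 4 arrays. Fkbp10 was nearest to Kdm4b at a distance of 0.016, with ratios of 0.16, 0.17, 0.35 and 0.41. Stmn4 was nearest to Tet2 (0.035), Trim30d to Kdm3a (0.052) and Inka2 to Kdm4a (0.051). Pygb was nearest to Kdm4c (0.024) and Ang4 to Kdm6b (0.036). With only 4 values a profile is easily matched: 31 genes lay within 0.1 of Kdm4b and 186 within 0.1 of Kdm4c, against 3 for Kdm3a.

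The other genes of the same chemistry and of the marks it removes were followed in 11 lists with 88 genes, of which 82 were measured, each by its brightest probe. None of the 82 passed the adjusted threshold in limma. At an unadjusted p under 0.05, 16 (19.5%) were higher and 10 (12.2%) lower in treated livers, beside 11.2% and 16.7% of all genes. The median over the 82 was 0.036, and over all genes -0.015.

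Of the other JmjC genes, 18 of 20 were measured, with a median of 0.014, 2 higher and 3 lower at an unadjusted p under 0.05. Kdm2a, an H3K36 demethylase, had ratios of 0.39, 0.11, 0.27 and 0.51, a mean of 0.32 ± 0.17 (adjusted p = 0.139 in limma). Hr, which encodes the hairless protein, had -0.17, -0.15, -0.23 and -0.17, a mean of -0.18 ± 0.036 (adjusted p = 0.14 in limma). Each kept its sign on all 4 arrays, in opposite directions. The flavin-dependent demethylases Kdm1a and Kdm1b, which need no 2-oxoglutarate, had means of 0.059 ± 0.11 and -0.042 ± 0.21.

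The AlkB dioxygenases, which act on nucleic acids and proteins, had 9 of 9 genes measured and a median of 0.106, with 2 higher and 1 lower. Alkbh7, a mitochondrial member, stood at 0.20 ± 0.035 and was above 0 on all 4 arrays. Alkbh6 stood at 0.34 ± 0.23.

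The DNA methyltransferases and Uhrf1, which write and keep the mark that TET enzymes oxidise, had a median of -0.101 over 5 genes, with 0 higher and 2 lower. Dnmt3l stood at -0.36 ± 0.27. The brightest Dnmt3a probe stood at -0.28 ± 0.23, but 2 other Dnmt3a probes were at 0.04 and 0.16. The genes listed under excision of oxidised or deaminated bases, not all of which cut out bases themselves, had a median of 0.078 over 10. Higher were 3 (Neil1, Gadd45a and Apex1) and lower 0. Among them Neil1, a DNA glycosylase, had 0.18 ± 0.042, and Gadd45a, a stress-induced gene, had 0.11, 0.30, 1.17 and 0.59 on pairs 1 to 4. Of 3 partners of TET proteins, Cxxc4 had -0.63, 0.11, -0.90 and -1.01, with pair 2 on the other side of 0, and Cxxc5 had a mean of 0.14 ± 0.059 with another probe at -0.09.

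The H3K9 methyltransferases, which place the mark that Kdm3a and the KDM4 enzymes remove, had a median of 0.068 over 6 of 7 genes, with 2 higher and 1 lower. Ehmt2 had 0.19, 0.13, 0.32 and 0.41, a mean of 0.26 ± 0.12 (adjusted p = 0.139 in limma). Suv39h2 had a mean of -0.22 ± 0.14, while 2 other probes of it were at 0.06 and 0.02. The H3K27 methyltransferase complex, opposite to Kdm6b, had a median of 0.07 over 6 genes and none at an unadjusted p under 0.05, with Eed at 0.098 ± 0.063 and Ezh1 at 0.10 ± 0.13. The H3K36 methyltransferases had a median of -0.018 over 5 genes and again none, with Nsd2 at 0.081 ± 0.036 and Nsd3 at -0.066 ± 0.044. Other Nsd2 probes were at 0.17 and -0.11, and other Nsd3 probes at -0.14, 0.01 and -0.09. Of the H3K4 methyltransferases 3 of 6 were measured, with Kmt2b at -0.16 ± 0.096 and Setd1a at 0.27 ± 0.23.

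Genes that supply 2-oxoglutarate or handle the metabolites that compete with it had a median of 0.071 over 15, with 5 higher and 1 lower at an unadjusted p under 0.05. Idh3a, a subunit of the mitochondrial isocitrate dehydrogenase that makes 2-oxoglutarate, had -0.40, -0.36, -0.68 and -0.40. Its mean was -0.46 ± 0.15 (unadjusted p = 0.000611, adjusted p = 0.139 in limma). Sdhd, a subunit of the succinate dehydrogenase, had 0.32, 0.17, 0.38 and 0.44, a mean of 0.33 ± 0.12 (adjusted p = 0.139 in limma). Both had the same sign on all 4 arrays.

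**Figure D5:**
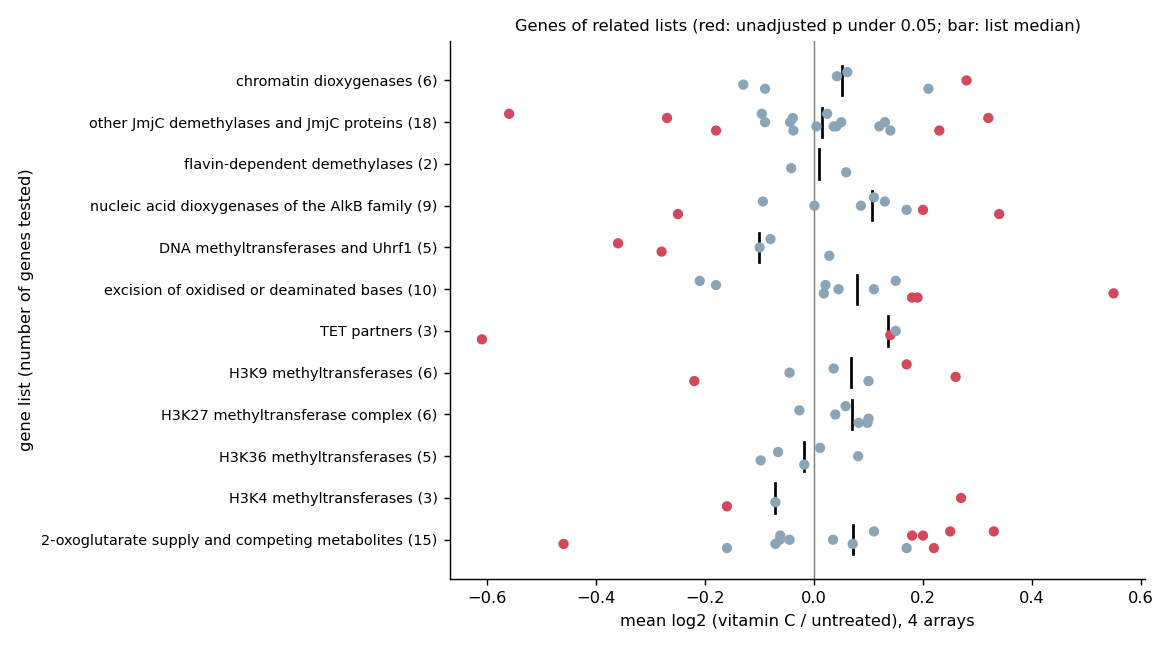
Mean log2 ratio (horizontal axis, log2 units) of each measured gene by list, with 1 point per gene (red at an unadjusted p under 0.05 in limma) and a bar at each list's median. List medians lie between -0.101 (DNA methyltransferases and Uhrf1) and 0.136 (TET partners, 0.01 without pair 3, 0.035 without pair 4 and -0.012 with no loess), and single genes spread to both sides of 0 in every list.

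Markers of the cell types that whole liver holds differed between pairs. Of 37 markers of other cell types in 8 lists, 35 were measured, and all 35 were well above background in both channels on every array. The hepatocyte markers had medians of -0.004, -0.095, -0.344 and -0.03 on pairs 1 to 4. Single markers lay on both sides of 0: Alb had a mean of -0.70 ± 0.25 and Apoa1 of -0.26 ± 0.19, both below 0 on all 4 arrays, while Ttr had 0.11 ± 0.13 and Hnf4a 0.077 ± 0.19, with 2 other Hnf4a probes at -0.25 and -0.19. Alb and Apoa1 were very bright, at mean log2 intensities of 18 and 17.1. The 158 probes of the brightest intensity bin (mean 17.41) had a median ratio of -0.289, with 5th and 95th percentiles of -0.928 and 0.007. Whether Alb and Apoa1 differ from probes of like intensity was not tested. Red cell lineage markers had 0.212, -0.626, -0.864 and -0.095. The medians over all arrays were 0.015 for endothelium, 0.009 for stellate cells and fibroblasts, -0.028 for cholangiocytes, -0.051 for T and NK cells, 0.075 for B cells and 0.065 for neutrophils. The T and NK cell median lies between genes on both sides: Nkg7 had 0.60 ± 0.40 and Cd3d 0.43 ± 0.26, both above 0 on all 4 arrays, and Cd3e had -0.25 ± 0.22 and Cd8a -0.19 ± 0.14. Another Nkg7 probe had a mean of 0.21, and other Cd8a probes had -0.18 and -0.09. None of the 39 markers measured passed the adjusted threshold in limma, and their part in the values of the members was not tested.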

How the data were processed

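The authors deposited scanner output with an intensity per spot and channel. Per the file headers it came from Agilent Feature Extraction 10.5.1.1. A deposited log2 table runs as untreated over treated: against log2 Cy5 over Cy3 of the same arrays its columns had r = 0.95 to 0.98, medians of 0.00136 to 0.00497 and slopes of 1.1 to 1.18. Its exact scale is unknown, and limma is named without a version per the submitters' processing notes. Every direction rests on the dye labels and would turn if those were reversed. Column mapping left 0 columns without a sample.

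Median signals and backgrounds, as the files give no means, were corrected with normexp (offset 50) and normalized by loess within arrays, with control spots at weight 0 and outlier spots (0.226% to 0.341%) left out. Spots of a probe were averaged. Log2 Cy3 over Cy5 was tested against 0 with limma 3.58.1 (lmFit, eBayes; R 4.3.3, statmod 1.5.0) over 39328 probes, with Benjamini-Hochberg adjustment over all of them and a threshold of 0.05. Levels per liver were scaled with Aquantile. The pairing lies in the array ratio, and all arrays lay on 1 slide with 1 scan date, so no slide block could be made. The steps were tested on simulated data with noise drawn independently for each array. That simulation did not copy the correlation of r = 0.563 to 0.77 between pairs 1, 3 and 4. It therefore does not show how the steps behave on arrays correlated in this way. Figures used Python 3.11.15 and matplotlib 3.10.9.

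Probe accessions were matched to a RefSeq gene table of GRCm38.p6, and 25097 probes (61%) had 1 symbol. The array design was annotated on another build, so no coordinates are given. Named genes were every member, the 2 genes of smallest unadjusted p in each related list and each member's nearest profile. Apex1, Gadd45g, Kdm2b and the single markers given with values lie outside this rule and were chosen after their values were seen. The comparison among the KDM4 genes was not in the plan of tests. The members and lists were chosen with earlier results of these data known. Alternatives were other background corrections, normalizations, filters, probe choices and variance models, the deposited table, and leaving out each array.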

Additional observations from a re-analysis of the deposited data

Results flagged for a closer look

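The dimmer Tet2 probe had 1 treated liver far from the others: pair 1 read a log2 intensity of 7.76 and the other treated livers 7.26 to 7.33, a gap of 0.868 of the group's range. The untreated liver of pair 1 was also the highest of its group, at 7.77. For Kdm6b the treated liver of pair 2 stood low, at 10.62 against 11.06 to 11.08, a gap of 0.955 of the range, and the untreated liver of pair 2 was the lowest of its group at 10.57. Both gaps exceeded Dixon's critical value at the 95% level. Of 27 sets of member values and 21 sets of list medians examined, these were the only 2 to exceed it. About 5% of groups pass it by chance.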

How the results depend on the processing

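Of 114 member probe values recomputed under the alternatives, 9 changed sign. Other filters, 1 probe per gene and an intensity trend left each mean ratio as it was. Values under those settings could not change sign. The brighter Tet2 probe was at 0.002 with Agilent's processed signals. With no loess, the dimmer Tet2 probe was at 0.041, Kdm4a at 0.026, the brighter Kdm4c probe at -0.077 and Kdm6b at -0.096. The dimmer Kdm3a probe was at -0.006 with array weights and at -0.028 to 0.129 without 1 array each, and the brighter Kdm4c probe at -0.004 to 0.074. The cause was not tested.

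The count of all probes past the adjusted threshold in limma went from 0 to 11919 with no loess, to 11829 with array weights and to 0 to 9687 without 1 array each, the highest without pair 2. At an unadjusted p under 0.05 the count was 10697, against 18209 with no loess and 17654 with array weights. Without pairs 1, 2, 3 and 4 it was 5302, 16349, 4022 and 5355. Of the 9 member probes, 2 had an unadjusted p under 0.05 (1 with 1 probe per gene, and 1 to 3 without 1 array each). Of all probes, 11.7% had such a p with a higher mean and 15.5% with a lower mean. The adjusted count of member probes was 0, and it was 2 with no loess, 2 with array weights and 0 to 2 without 1 array each. With no loess, where both were higher, 14.8% of all probes passed as higher. With array weights 12% of all probes passed as higher and 18.1% as lower, and without pair 2 9.17% and 15.5%. Of 156 list medians recomputed, 10 moved by more than their spread over arrays. List medians with 1 probe per gene or an intensity trend rest on the same ratios and could not move. All 9 member probes were well above background in both channels on every array, so none of their values is a bound. The offset of 50 was added in both channels, and its effect on the ratios of the dimmer probes was not tested.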

Other observations

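Many genes of the related lists had ratios of opposite sign on pair 2 and on pairs 3 and 4. Over all probes, pair 2 correlated with pairs 3 and 4 at r = -0.094 and -0.131, so such signs are not particular to these lists. The share of all probes with this pattern was not counted. The genes given here were picked after their values were seen. Gadd45g, a stress-induced gene, had log2 ratios of 0.46, 2.16, -1.27 and -2.08 on pairs 1 to 4, which average to -0.18 ± 1.9. The brightest probe of Kdm2b, which encodes a JmjC protein that binds unmethylated CpG DNA, had -0.60, 0.28, -1.01 and -0.92, while 2 other Kdm2b probes had means of 0.05 and -0.03. Dnmt3l had -0.39, 0.036, -0.52 and -0.55.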
